A study of Mus musculus with 2 samples.

Results

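The 9 genes described here encode RNA-binding proteins and a pair of RNA-cutting enzymes that set how long inflammatory mRNAs last: Zfp36, Zfp36l1, Zfp36l2, Zc3h12a, Zc3h12c, Rc3h1, Elavl1, Khsrp and Tia1. They were taken by symbol, and all 9 were found among the 55536 Ensembl genes of the deposited gene tables. The data are RNA-seq of rRNA-depleted RNA from nuclei of bone marrow-derived macrophages, phagocytes cultured from the bone marrow of C57BL/6J mice. The cells received 100 ng/ml Lipid A, the TLR4-binding part of endotoxin, for 12 hours. They were washed free of it for 12 hours and given 100 ng/ml again for 20 minutes. The design has 1 group of 2 libraries, called replicates 1 and 2, which the labels name biological replicates with the same donor label. The sources used here do not say whether they came from separate cultures, so the spread between them may be technical. No untreated cells, no cytoplasmic fraction and no other time were analysed here, so every value is a level after this single treatment or a difference between its libraries.

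Many mRNAs of cytokines and early response genes carry AU-rich stretches or small stem-loops in the 3′ untranslated region (UTR). Tristetraprolin (TTP, from Zfp36) and its relatives bind the AU-rich sites and recruit the CCR4-NOT complex, which removes the poly(A) tail. Regnases cut stem-loops, Roquin binds them and recruits decay enzymes, and HuR (from Elavl1) protects AU-rich mRNAs that TTP and KSRP would send to decay. In macrophages TTP mRNA is induced quickly by endotoxin and is also a target of TTP.

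Depth was 21954179 expected counts (estimated reads, which need not be whole) in replicate 1 and 17739520 in replicate 2. A count of 0 allows up to 3 counts, or 0.137 and 0.169 CPM, counts scaled to a common library total. Levels are given as TPM, the length-corrected share of a library, and 12952 genes had a mean of 1 TPM or more, with a median of 6.94 TPM. All 6 macrophage markers were present at 60.5 to 1411 TPM, and their summed level was 2259 TPM in replicate 1 and 2726 TPM in replicate 2. Of 5 neutrophil markers only S100a9 passed 1 TPM, at 1.42 TPM, and the list summed to 1.78 and 2.53 TPM, with Ly6g and Elane at 0. Summed dendritic cell, lymphoid, stromal and erythroid markers came to at most 1.28, 0.22, 0.11 and 0.45 TPM in either library. The nuclear RNA Malat1 reached a mean of 22212 TPM. Replicate 1 started from 1 µg of RNA and replicate 2 from 500 ng, so input and replicate cannot be told apart. In bulk RNA, fewer cells of a type and less RNA per cell cannot be told apart either.

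All 9 genes were expressed, and all 9 lay above the median gene. Over the 10040 protein-coding genes at 1 TPM or more the median was 8.9 TPM. The means of all 9 were above this too, but Elavl1, the lowest, was above only 55.0% of these coding genes. In replicate 1 Elavl1, at 8.48 TPM, was below that median. The median level of the 9 genes was 16.9 TPM, and they spanned 10.4 to 218 TPM. Zfp36 stood above the other 8 in both libraries, and it alone made up 58.1% of their joint TPM in replicate 1 and 47.7% in replicate 2. The 9 together summed to 389 TPM and 441 TPM, which corresponded to 1503 and 1523 CPM of expected counts.

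**Figure D1:**
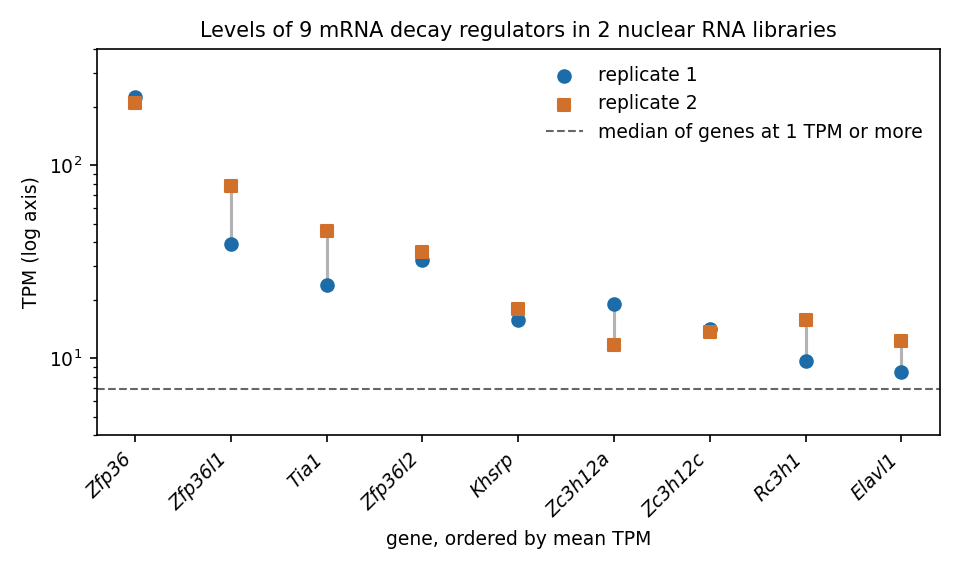
TPM of each gene (log axis) in replicate 1 (circles) and replicate 2 (squares), ordered by mean, with the median of the 12952 genes at 1 TPM or more as a dashed line. Zfp36 sits at 211 to 226 TPM, above every other gene, and all points lie above the dashed line.

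The TTP family was led by its founding member. Zfp36 (ENSMUSG00000044786.6, chr7:28376784-28380253, minus strand) encodes TTP, a CCCH zinc-finger protein that binds AU-rich sites. It reached 226 TPM in replicate 1 and 211 TPM in the other library, from 15689 and 10109 expected counts. Its mean of 218 ± 10.8 TPM (SD, n = 2) was above that of 98.6% of the 12952 genes. The libraries were close to each other in TPM, while CPM was 715 in replicate 1 and 570 in replicate 2. Relative to the median gene Zfp36 was lower in replicate 2, at -0.39 on the log2 scale. The 3 protein-coding genes nearest to Zfp36 in both libraries were Iigp1 (mean 222 TPM, an interferon-induced GTPase), Akr1a1 (226 TPM, an aldo-keto reductase) and Tpm3 (220 TPM, a tropomyosin). Nearness is the Euclidean distance in log2 TPM over 2 libraries only. An antisense gene, Gm44710, overlaps 125 exonic bases of Zfp36 and had 6 and 2 expected counts.

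Zfp36l1 (ENSMUSG00000021127.7, chr12:80107754-80113013, minus strand) encodes a TTP relative that also promotes decay of AU-rich mRNAs. Its level was 39.2 TPM in replicate 1 and 78.3 TPM in the other library, with a mean of 58.8 ± 27.7 TPM (SD, n = 2). This was the widest gap in TPM among the 9 genes, and replicate 2 was the higher library. Its counts, 2881 and 4445, were not whole numbers in the tables, so some of its reads were shared with other entries, and the files also list a processed pseudogene of it, Zfp36l1-ps. On the opposite strand the lincRNA Gm26669 overlaps 1672 exonic bases of Zfp36l1 and had 531 and 319 expected counts. The sources used here name no strand setting for the counting, so reads of the overlap may not be separated. Gm26669 was lower in replicate 2 (11.1 and 9.80 TPM), opposite in direction to Zfp36l1.

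Zfp36l2 (ENSMUSG00000045817.8, chr17:84183931-84187947, minus strand), the other relative in the family that is expressed broadly, had 32.3 and 35.4 TPM, a mean of 33.8 ± 2.21 TPM (SD, n = 2). The ratio of Zfp36 to Zfp36l2 was 7.0 in replicate 1 and 5.95 in replicate 2. The ratio of Zfp36 to Zfp36l1 was 5.77 and 2.69. Zfp36 thus held 76.0% and 64.9% of the TPM of the trio, Zfp36l1 held 13.2% and 24.2%, and Zfp36l2 held 10.9% in both libraries. The placental relative Zfp36l3 had 0 counts in both libraries.

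The RNases that cut stem-loops were lower. Zc3h12a (ENSMUSG00000042677.7, chr4:125118423-125127840, minus strand) encodes Regnase-1, an endonuclease that cleaves stem-loops in cytokine mRNAs and is itself destroyed after IKK phosphorylation. Its level was 19.2 TPM in replicate 1 against 11.7 TPM in replicate 2, with a mean of 15.5 ± 5.28 TPM (SD, n = 2) and 1236 and 551 expected counts. Zc3h12c (ENSMUSG00000035164.8, chr9:52111344-52168572, minus strand) encodes Regnase-3, a relative with the same type of nuclease domain. It had 14.2 and 13.7 TPM, a mean of 13.9 ± 0.361 TPM (SD, n = 2), the smallest spread of the 9 genes. Regnase-1 was above Regnase-3 in replicate 1, with a ratio of 1.36, and below it in replicate 2, with a ratio of 0.860. Of the other Regnase genes, Zc3h12d had 13.2 and 16.1 TPM, and Zc3h12b had 0.28 and 0.36 TPM. These relatives, like Zfp36l3, Rc3h2, Tial1 and the neuronal Elavl genes, are described because they belong to the same gene families.

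Rc3h1 (ENSMUSG00000040423.10, chr1:160906418-160974978, plus strand) encodes Roquin-1, which recognises stem-loop decay elements. Its level was 9.74 TPM in replicate 1 against 15.9 TPM in replicate 2, with a mean of 12.8 ± 4.36 TPM (SD, n = 2). Its paralog Rc3h2 was higher, at 19.2 and 39.5 TPM, and the ranges of the paralogs over the 2 libraries did not overlap. Inside the bounds of Rc3h1, on its strand and outside its exons, lie 3 entries of the GENCODE type TEC, which awaits experimental evidence. Gm37052 had 2.35 and 7.63 TPM, Gm37653 had 2.11 and 5.10 TPM, and Gm37809 had 1.26 and 4.18 TPM. All 3 had a higher TPM in replicate 2, as Rc3h1 did, and 27.8% of the 12952 genes had a lower one. Relative to the median gene the 3 entries were higher by 1.08, 0.68 and 0.91 on the log2 scale, and Rc3h1 by 0.37. They were looked at after their values had been seen, and whether they hold intronic RNA of Rc3h1 was not tested.

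Elavl1, Khsrp and Tia1 encode proteins that act on AU-rich or U-rich mRNA without belonging to those families. Elavl1 (ENSMUSG00000040028.10, chr8:4285382-4325413, minus strand) encodes HuR, which stabilises AU-rich mRNAs. It had the lowest mean of the 9 genes, 10.4 ± 2.70 TPM (SD, n = 2), from 8.48 TPM in replicate 1 and 12.3 TPM in replicate 2. Its exons share 204 bases with the chemokine gene Ccl25 on the opposite strand, which had 12.7 and 24.8 TPM. The neuronal relatives were near absence, with 0 counts for Elavl2, 2 and 0 for Elavl3, and 1 and 0 for Elavl4.

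Khsrp (ENSMUSG00000007670.10, chr17:57021051-57031522, minus strand) encodes KSRP, a KH-domain protein that promotes decay and also takes part in nuclear RNA processing. It had 15.9 TPM and 18.0 TPM, a mean of 16.9 ± 1.48 TPM (SD, n = 2). Tia1 (ENSMUSG00000071337.11, chr6:86404219-86433405, plus strand) encodes a U-rich RNA binder that silences translation and regulates splicing in the nucleus. Its level was 24.0 TPM in replicate 1 against 45.5 TPM in replicate 2, a mean of 34.8 ± 15.2 TPM (SD, n = 2). Its paralog Tial1 had 18.1 and 35.2 TPM, and the ranges of the paralogs overlapped. Both had a higher TPM in replicate 2, where 27.8% of the 12952 genes had a lower one. Relative to the median gene Tia1 was higher by 0.61 and Tial1 by 0.64 on the log2 scale.

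In order of mean TPM the genes were Zfp36, Zfp36l1, Tia1, Zfp36l2, Khsrp, Zc3h12a, Zc3h12c, Rc3h1 and Elavl1. Of the 8 pairs of neighbours in this order, 2 had ranges that did not overlap: Zfp36 above Zfp36l1, by 3.71 times, and Zfp36l2 above Khsrp, by 2.00 times. The ranges of the other 6 pairs overlapped. Of these 6, 2 kept their order within each library: Zfp36l1 was 1.63 and 1.72 times Tia1, and Rc3h1 was 1.15 and 1.29 times Elavl1. The other 4 pairs changed places between the libraries. In replicate 1 Zc3h12a was above Khsrp and in replicate 2 it was last. A further transcript table, made directly from the reads, gave lower TPM, with 51.5 and 117 TPM for Zfp36 and a median of 9.63 TPM for the 9 genes. In that table transcripts under 250 bases took 81.2% and 53.1% of all TPM, against 14.3% and 16.0% in the alignment-based table over the transcripts that both list. Zfp36 stayed the highest of the 9 in it.

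The annotated transcript models of Zfp36 differ from those of its relatives. GENCODE M21 holds 2 models of Zfp36, both typed as protein coding. Zfp36-201 has 2 exons of 1080 and 1710 bases, joined across the only intron of 680 bases (chr7:28378494-28379173). Zfp36-202 is a single exon of 2465 bases that runs through that intron. In the 30 bases below, taken from the models and written on the sense strand of mm10, the capitals mark the first or last bases of the intron, or the last base of exon 1 and the first of exon 2 where they are joined.
Zfp36-202 start of the intron: tctgccatctacgagGTgagtacctgttag
Zfp36-202 end of the intron: ccctgttcctctcAGagcctccagtcgatg
Zfp36-201 exon 1 joined to exon 2: tctgccatctacgaGAgcctccagtcgatg

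Zfp36-202, the model that contains the intron, carried 78.8% of the TPM of Zfp36 in replicate 1 and 69.8% in replicate 2, a mean of 74.3% ± 6.33 (SD, n = 2). Zfp36-201 carried 21.2% and 30.2%. In expected counts this was 11994 against 3695 in replicate 1 and 6765 against 3344 in replicate 2. The further transcript table gave 75.3% and 67.9% for Zfp36-202. Genes with a model that covers at least 1 intron of their leading spliced coding model numbered 3257 at a mean of 1 TPM or more. The share of such models had a median of 17.8% and quartiles of 9.24% and 30.1% over these genes. The value for Zfp36 lay above that of 98.6% of them, and 47 reached it or passed it. This measure was chosen after the shares of Zfp36 had been seen and is a description.

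The models also differ outside the intron. Zfp36-201 begins 998 bases upstream of Zfp36-202, and these bases occur in no other model of the gene. RefSeq, on GRCm38.p6, starts the gene 1025 bases downstream of the start of Zfp36-201, near the start of Zfp36-202. GENCODE M21 has no model that combines the downstream start with the spliced intron. Reads of spliced RNA from the downstream start would have to be divided between the 2 models, so the share of Zfp36-202 cannot be read as a share of unspliced RNA. The start site and the retained intron cannot be told apart in these tables.

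**Figure D2:**
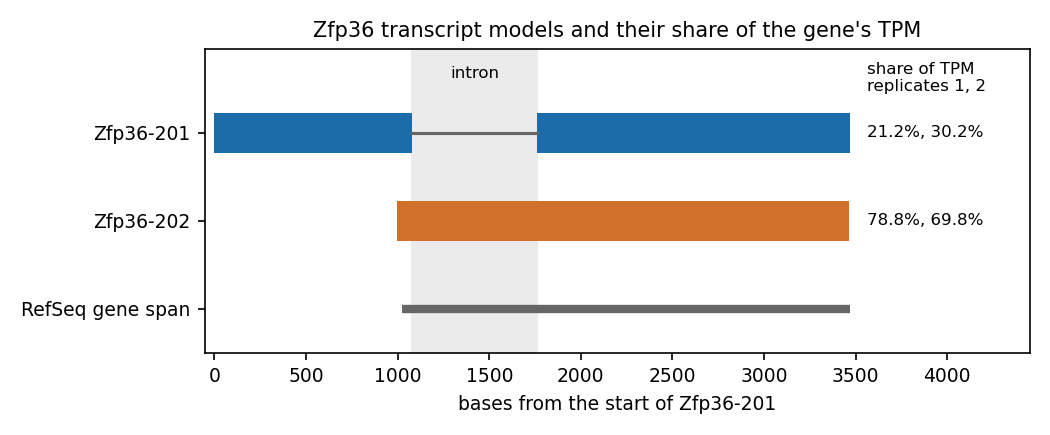
Exons of the 2 GENCODE models of Zfp36 and the span of the RefSeq gene, in bases from the start of Zfp36-201, with the intron shaded and each model's share of the gene's TPM in replicates 1 and 2 at the right. Zfp36-202 covers the intron and carries 78.8% and 69.8%, and the RefSeq span starts close to it.

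Neither Zfp36l1 nor Zfp36l2 has an annotated model that covers an intron of its leading model. No TPM of these genes could therefore be assigned to one, and the contrast with Zfp36 is one of annotation. Zfp36l1 has 4 models, all coding, and Zfp36l1-201 carried 86.9% and 99.9% of its TPM. The rest of replicate 1 fell on Zfp36l1-204, with 13.1% from 51 expected counts, and this model had 0 in replicate 2. Zfp36l2 has 1 model. For the Regnases, Zc3h12a-201 carried 81.3% and 88.4%, and the retained-intron model Zc3h12a-202 carried 18.7% and 11.7%. That share rests on 48 and 12 expected counts, 3.90% and 2.25% of the gene's counts, since the model is short. The further table placed 44.2% and 35.9% on it. Zc3h12c-202 carried 97.3% and 100% of Zc3h12c, against 73.8% and 83.5% in the further table. Rc3h1-202 carried 93.6% and 96.5% of Rc3h1.

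Tia1 was the gene with most of its TPM outside coding models. It has 28 annotated models, of which 14 are retained-intron models, 4 are typed as targets of nonsense-mediated decay (NMD) and 5 are coding, and 19 had a TPM above 0. Retained-intron models carried 58.3% of its TPM in replicate 1 and 64.4% in replicate 2, a mean of 61.3% ± 4.31 (SD, n = 2). Coding models carried 21.6% and 21.3%, and NMD models carried 11.3% and 14.3%. Counted in expected counts, retained-intron models held 47.6% and 53.1%. Over the 6243 genes at 1 TPM or more with a retained-intron model, the median share was 26.2% and the quartiles were 13.9% and 41.8%. Both libraries of Tia1 lay above the upper quartile of this annotated type. By the measure used for Zfp36, models that cover an intron of the leading spliced coding model, Tia1 had 15.4% and 22.5%. Both values lay within the quartiles of 9.24% and 30.1% for that measure. Only 4 of the 28 models cover such an intron, and Tia1-213 is not among them. The coding model Tia1-202 carried 16.5% and 12.3%, and the retained-intron model Tia1-213 carried 12.7% and 16.0%.

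Elavl1 and Khsrp lay between these cases. Elavl1-201 carried 56.0% and 62.5% of Elavl1, and the other coding model, Elavl1-204, carried 29.4% in replicate 1 and 3.71% in replicate 2. Retained-intron models of Elavl1 held 14.7% and 33.8%. Of these, Elavl1-202 held 10.5% and 11.5%, while Elavl1-203 held 4.16% and 22.3%, from 4 and 22 expected counts. Khsrp-201 carried 87.7% and 80.3% of Khsrp, and the retained-intron model Khsrp-203 carried 5.13% and 19.7%, from 9 and 27 expected counts.

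**Figure D3:**
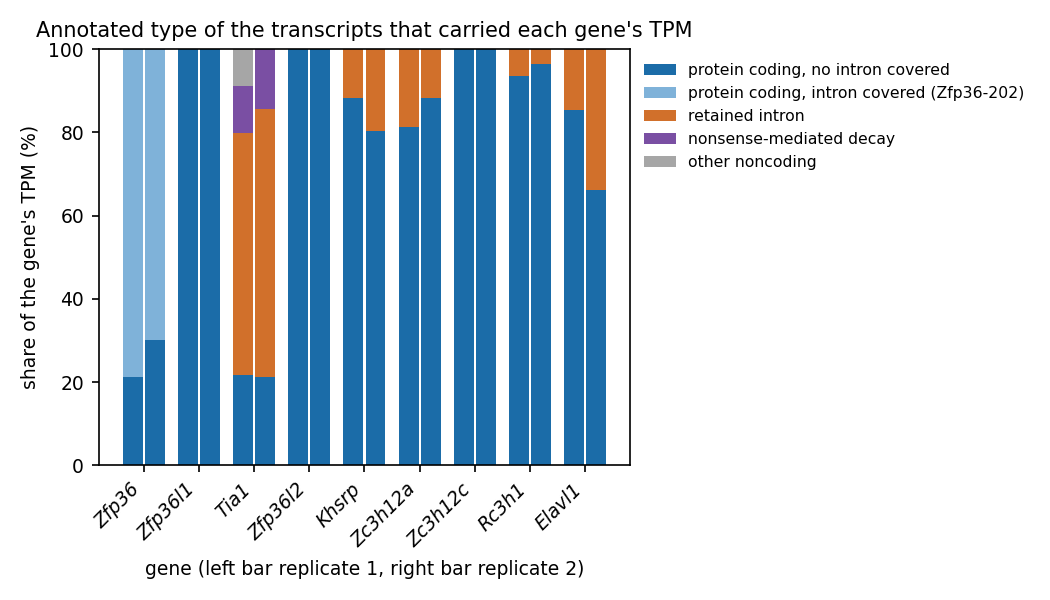
Share of each gene's TPM (%) carried by its transcript models, grouped by annotated type, with replicate 1 as the left bar and replicate 2 as the right bar of each gene. Zfp36 is mostly the intron-containing Zfp36-202 and Tia1 mostly retained-intron models. Zfp36l1, Zfp36l2 and Zc3h12c have only coding models in the annotation, so their bars can show no other type.

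Restricted to coding models that cover no intron, a comparison added after seeing the data, the order of the means at the top changed. Zfp36 then had 47.9 and 63.5 TPM, a mean of 55.7 ± 11.0 TPM (SD, n = 2), against 58.8 ± 27.7 TPM for Zfp36l1, and their ranges overlapped. Zfp36 stayed above Zfp36l1 in replicate 1, where Zfp36l1 had 39.2 TPM, and was below it in replicate 2, where Zfp36l1 had 78.3 TPM. Zfp36l2 followed at 33.8 TPM. Tia1 had 5.19 and 9.70 TPM and by its mean of 7.45 TPM moved from the third place to the last. Elavl1, next above it, had 7.24 and 8.15 TPM, a mean of 7.7 TPM. The ranges of Tia1 and Elavl1 overlapped, and Tia1 was the higher of them in replicate 2. The 7 genes other than Zfp36 and Tia1 differed from their full level by at most 2.71 TPM. The restriction also removes any RNA of Zfp36 that starts at the downstream site and is assigned to Zfp36-202.

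The mRNAs of several of these regulators carry the sequence that TTP binds. The motif searched was TATTTAT, the DNA letters of the core AU-rich site, on the sense strand of the 3′ UTR of the leading spliced coding model, with overlapping matches counted. It occurred in 7 of the 9 genes, and in 28.3% of the 9771 coding genes at 1 TPM or more with an annotated 3′ UTR. For these 9771 genes, here and in the comparisons by UTR length, the leading coding model was used whether or not it is spliced. The UTRs of the 9 genes had a median length of 1835 bases against 986 bases over the 9771 genes, and longer UTRs hold more matches. The windows below, of 27 bases from the GENCODE M21 transcripts, show the matches in capitals for the TTP family and Elavl1, where matches were most frequent for their UTR length.
Zfp36 site 1: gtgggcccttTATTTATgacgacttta
Zfp36 site 2: atgacgacttTATTTATtgtattaaga
Zfp36 site 3: gattttatagTATTTATatatattggg
Zfp36l1 site 1: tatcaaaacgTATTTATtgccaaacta
Zfp36l2 site 1: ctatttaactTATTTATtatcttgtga
Elavl1 site 2: gaaaatTATTTATTTATTTATTTATtt

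The 3 matches of Zfp36 lie 575, 590 and 615 bases after the stop codon, within its UTR of 774 bases (chr7:28376927-28376993 spans the 3 windows on mm10). Of the 1165 genes whose UTR length is within 20% of this, 20.4% hold a match and 0.601% hold at least as many. Zfp36l1 has 3 matches in 1835 bases, as 3.34% of genes of like UTR length do or exceed, and Zfp36l2 has 3 in 1822 bases, with 3.26%. Elavl1 has 8 matches in 4218 bases, and 0.15% of genes of like length hold as many. All 8 lie from 3795 to 3841 bases after the stop codon and most overlap each other, so they form runs and not 8 separate sites (the window printed for it covers chr8:4285785-4285811). Zc3h12c and Rc3h1 have 2 each, and 27.4% and 43.0% of genes of like length hold at least as many. A match of any number occurs in 61.4% and 76.6% of those genes. Tia1 has 1, as 52.5% of genes of like length do or exceed. Zc3h12a and Khsrp have no match in their UTRs of 856 and 1642 bases. The match counts describe sequence only and are no measure of binding.

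The difference between the libraries was taken as log2(TPM + 1) in replicate 2 less that in replicate 1, and the median of all 12952 genes, 0.29, was subtracted. With 1 library on each side there is no test. None of the 9 genes passed 2-fold in either direction, against 7.29% of the 12952 genes. Relative to the median gene 5 were lower in replicate 2 and 4 were higher, against 50% of all genes lower, a share that the centring sets. Without centring 3 of the 9 were lower (Zfp36, Zc3h12a and Zc3h12c), against 27.8% of all genes. The median difference of the 9 was -0.12, and the middle 50% of all genes lay between -0.33 and 0.32. The ratio of CPM, with an exact (Clopper-Pearson) 95% interval that covers counting error only, excluded equality for all 9 genes and for 64.7% of the 12952. It leaves out the spread between samples and any scaling for library composition.

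Zc3h12a was the gene furthest down in replicate 2, at -0.95, and its CPM ratio was -0.86 on the log2 scale (interval -1.01 to -0.71). Zfp36 was at -0.39 (CPM ratio -0.33, interval -0.36 to -0.29) and Zc3h12c at -0.34. Zfp36l2, at -0.16, and Khsrp, at -0.12, were close to the median gene, and both turned positive in TPM without centring, at 0.13 and 0.17. Their CPM ratios, which are not centred either, were negative, at -0.11 (interval -0.19 to -0.03) and -0.19 (interval -0.30 to -0.08). On the other side Zfp36l1 was at 0.69 (CPM ratio 0.93, interval 0.87 to 1.00) and Tia1 at 0.61 (0.72, interval 0.62 to 0.81). Rc3h1 was at 0.37 and Elavl1 at 0.20. Zfp36l1, Tia1, Rc3h1, Zfp36 and both Regnases lay outside the middle 50% of genes. Within the TTP family the directions were mixed, with Zfp36l1 higher in replicate 2 and Zfp36 lower, with and without centring, while both Regnases were lower in either case. RNA input differed between the libraries as given above, and its part in these differences was not tested.

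**Figure D4:**
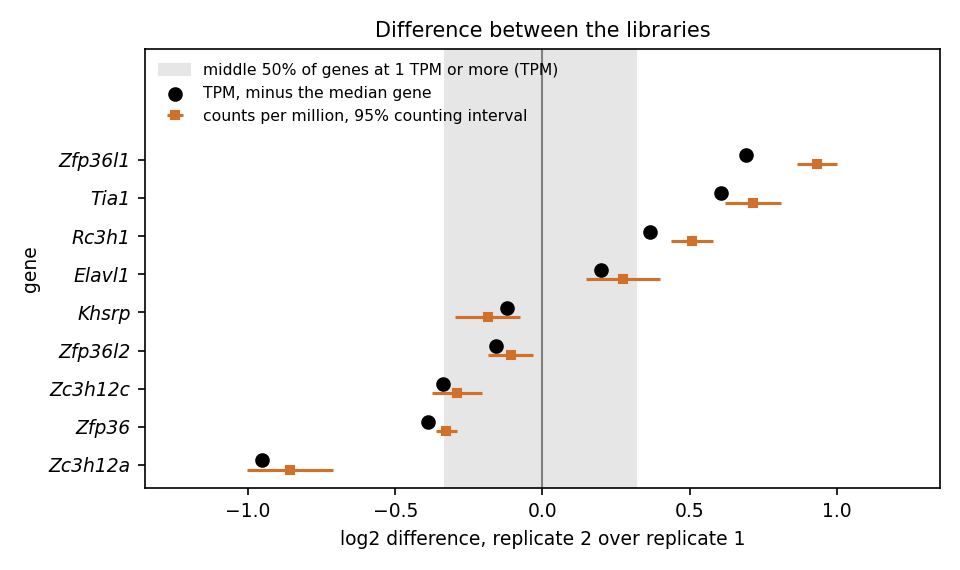
Log2 difference of replicate 2 over replicate 1 for each gene, as TPM minus the median gene (black circles) and as CPM with the 95% counting interval (orange squares), over the middle 50% of the 12952 genes (grey, TPM). Zc3h12a is lowest at -0.95 and Zfp36l1 highest at 0.69, and no interval crosses 0.

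The partners of these regulators were grouped in 6 lists, described by counts and medians. Beside these counts stand the shares over the 12952 genes. In replicate 2, 50% were lower relative to the median gene and 27.8% were lower without centring. In either direction 7.29% passed 2-fold. Proteins that act on TTP, Regnase-1 or Roquin were the highest list of machinery, with a median of 28.0 TPM and 12 of 12 genes at 1 TPM or more. The highest were Dusp1, a phosphatase that switches off p38, at 64.2 ± 13.1 TPM (SD, n = 2), Malt1, a protease that cleaves Regnase-1 and Roquin, at 56.3 ± 9.63 TPM, and the kinase gene Tbk1 at 55.2 ± 5.18 TPM. Relative to the median gene 6 of the 12 were lower and 6 higher in replicate 2, and none passed 2-fold. Without centring 3 were lower and 9 higher.

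Deadenylases shorten the poly(A) tail. Their list also holds non-catalytic subunits of their complexes and the Tob and Btg genes, which are not deadenylases themselves. It had a median of 12.3 TPM, with 17 of 17 genes at 1 TPM or more. Pan3 had 70.9 ± 13.6 TPM (SD, n = 2), Cnot1, the scaffold to which TTP binds, had 46.5 ± 22.5 TPM, and Btg2 had 31.9 ± 8.30 TPM. Relative to the median gene 13 were higher and 4 lower in replicate 2, with a median difference of 0.15. Without centring all 17 were higher, in libraries where only 27.8% of the 12952 genes were lower in replicate 2. Cnot6l, a catalytic subunit, was the single one past 2-fold, with 10.7 TPM in replicate 1 and 32.6 TPM in replicate 2 (1.23 on the log2 scale).

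The steps after deadenylation were lower. Decapping and 5′ to 3′ decay genes had a median of 9.47 TPM over 9 of 9 genes, led by the helicase gene Ddx6 at 36.5 ± 10.2 TPM (SD, n = 2), the exonuclease gene Xrn1 at 26.9 ± 3.42 TPM and the decapping enzyme gene Dcp2 at 21.2 ± 1.12 TPM. Exosome and SKI genes, which degrade from the 3′ end, had a median of 6.13 TPM over 14 of 14 genes, below the median of 6.94 TPM of all genes. Skiv2l led them at 17.6 ± 1.09 TPM, followed by Exosc10 at 9.54 ± 0.106 TPM and Exosc9 at 9.39 ± 3.66 TPM. None of these 23 genes passed 2-fold, and relative to the median gene 6 decapping and 8 exosome or SKI genes were lower in replicate 2. Without centring 3 and 6 were lower.

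Other proteins that bind AU-rich or stem-loop RNA had a median of 11.1 TPM, and 7 of 12 reached 1 TPM. Hnrnpd, which encodes the AU-binding protein AUF1, was highest at 54.7 ± 13.8 TPM (SD, n = 2), followed by Fubp1, a relative of KSRP, at 47.0 ± 17.9 TPM and Hnrnpab at 30.7 ± 2.52 TPM. Of the 7, 5 were higher in replicate 2 relative to the median gene and 6 without centring, and none passed 2-fold.

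The mRNAs known to be bound by TTP, Regnase-1 or Roquin had a median of 15.5 TPM, and 13 of 15 reached 1 TPM. Tnf, the best known target of TTP, had 326 TPM in replicate 1 against 154 TPM in replicate 2, a mean of 240 ± 122 TPM (SD, n = 2), and its range included the values of Zfp36. Ccl3 had 171 ± 27.6 TPM and Cxcl2 had 70.8 ± 3.95 TPM, while Csf2 had 0 counts. Of the 13, 10 were lower in replicate 2 relative to the median gene, with a median difference of -0.29, and 7 were lower without centring. Tnf (-1.37) and Fos (1.57, from 20.8 to 78.3 TPM) were past 2-fold, in opposite directions. These are levels in the nucleus, and decay in the cytoplasm was not measured.

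**Figure D5:**
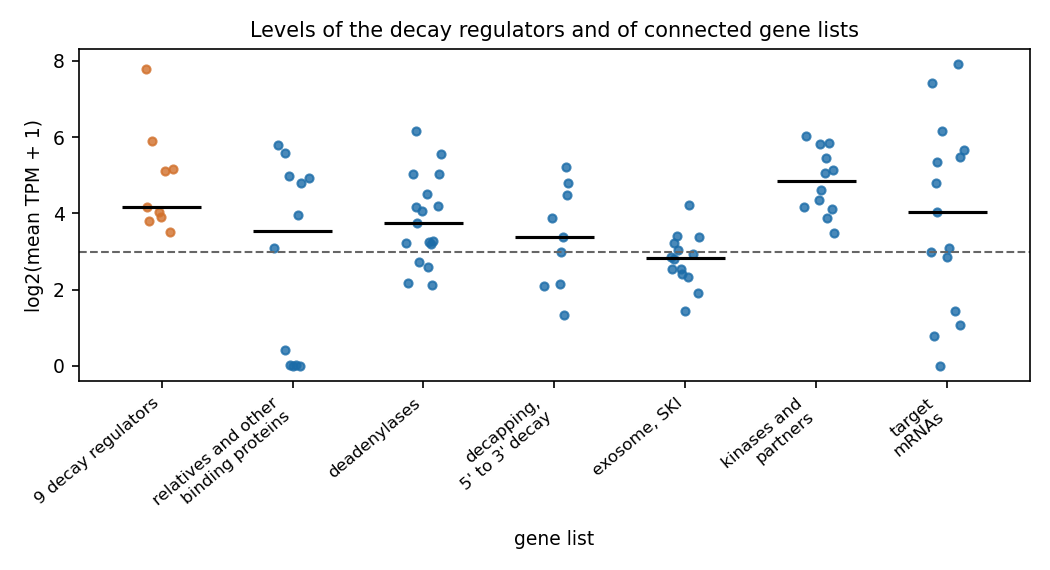
Log2(mean TPM + 1) of the 9 decay regulators (orange) and of the genes of 6 connected lists (blue), 1 point per gene, with the median of each list as a bar and the median of the 12952 genes at 1 TPM or more as a dashed line. Zfp36 is the top orange point at 218 TPM, Tnf the top point of the target mRNAs at 240 TPM, and the exosome and SKI list alone has a median below the dashed line.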

How the data were processed

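RNA of the nuclear fraction was measured in 2 libraries of 1 group. The labels call the fraction nucleoplasmic in the description and nuclear in the characteristics. Deposited text files name mm10 and GENCODE M21 as the basis of the tables. The authors deposited expected counts, which are not normalised, and TPM, which are divided by effective length and scaled per library, as file headers and values show. The authors also deposited isoform percent values, which give how much of a gene's TPM each transcript took, per the file headers. Estimated counts and TPM in a further transcript table were made from the reads, per the deposited text files. The sources used here name no quantifier, version or strand setting.

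The 9 genes, the 6 lists (79 symbols), the marker lists (27 symbols) and the rules were chosen with earlier results of these data known. Named were all 9 genes, the 3 highest of each list, list members past 2-fold, transcripts with a mean share of 10% or more, and the 3 coding genes nearest Zfp36. Relatives and overlapping genes outside this rule were chosen after their values were seen. Genes with a mean of 1 TPM or more entered comparisons. Differences used a pseudocount of 1 TPM, which understates folds of low genes, and were centred on the median gene. Intervals treat reads as independent and cover counting error only. The difference was tested on simulated data for genes of high level. UTRs, exons and sequences came from the GENCODE M21 annotation and transcripts. The alternatives were pseudocounts of 0.1 and 5, no centring, centring on coding genes, no filter, at least 10 counts, the further table, TMM-scaled counts (edgeR 4.0.16, R 4.3.3, counts rounded), rescaling to coding genes, leaving out a replicate, and, added later, coding models that cover no intron. Other steps used matplotlib 3.10.9, scipy 1.17.1, pandas 2.3.3 and numpy 2.4.6 under Python 3.11.15.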

Additional observations from a re-analysis of the deposited data

How the results depend on the processing

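The median level of the 9 genes, 16.9 TPM, was 18.0 to 19.2 TPM in a single library, 9.63 TPM in the further transcript table, 13.9 TPM over coding models that cover no intron, and 72.6 TPM when rescaled to coding genes, which held 25.4% and 33.5% of TPM. The median difference of -0.12 became 0.17 without centring, 0.049 without a filter, 0.040 in the further table and -0.24 with TMM-scaled counts, and the count of genes lower in replicate 2 went from 5 to 3 both without centring and without a filter. With a pseudocount of 0.1, 1 gene passed 2-fold (Zc3h12a, -1.05), against 0. The difference changed sign in 5 of 72 alternatives for single genes, only in Zfp36l2 and Khsrp. The Zfp36-202 share of 74.3% ranged from 69.8% to 78.8% without either replicate and was 71.6% in the further table. Tia1-202 did not lead the models of Tia1 there. Leaving out a library leaves no difference to compute, as each side holds 1. No paired analysis was possible because there is 1 group. Depth limits the shares of short models, several of which rest on under 30 counts.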
